A study of Mus musculus with 12 samples.

Results

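Cxcl9, Cxcl10, Cxcl11 and their shared receptor Cxcr3 were followed through mouse tumours grown from SCC35 lines, in single-cell RNA profiles of live cells sorted from dissociated tumours. The 4 genes were chosen by name; 3 of them have a row among the genes counted, and Cxcl11 was not analysed here. Control tumours came from 2 lines (15 and 18) named as controls of the Mif knockout, and Mif KO tumours from 2 knockout lines (19 and 24). All 4 lines carry the SCC35 background, and the sources used here do not say whether a line is a single clone. The lines were profiled at days 0, 6, 10 and 16, with 21 control and 21 Mif KO samples used, each marked by an antibody hashtag. A further line 18 sample of day 0 and a further line 24 sample of day 6 were left out. Each had under 0.1% of the hashtag counts of its library. The labels do not say whether the day 0 samples were tumours or cultured cells: T cells were 0% to 0.18% of their cells. The 3 tumours whose hashtags are assigned to WT, 1 each at days 6, 10 and 16, belong to neither labelled group of lines and are given as values only. The comparisons below use the 18 control and 17 Mif KO tumours of days 6 to 16 unless day 0 is named. All edgeR fits of Mif KO against control in the line compartment also held the day 0 samples, except where these are said to be left out. The mixed libraries held no day 0 sample.

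Cxcl9, Cxcl10 and Cxcl11 are small secreted chemokines that cells make after exposure to interferon. All bind Cxcr3, a receptor carried by activated T cells, NK cells and part of the dendritic cells, and they are known for drawing such cells into inflamed tissue and tumours. Interferon gamma acts through the kinases Jak1 and Jak2, while Cxcl10 also answers to type I interferon and to NF-kB signals.

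Cxcl9 (ENSMUSG00000029417) lies at chr5:92321347-92328079 and Cxcl10 (ENSMUSG00000034855) at chr5:92346638-92348889 of GRCm38, both on the minus strand and 18558 bases apart. Cxcl11 (ENSMUSG00000060183, chr5:92359544-92365485), beside them, is annotated as a polymorphic pseudogene in this build, and Cxcr3 (ENSMUSG00000050232) is at chrX:101731535-101734269. The promoters of both ligands are shown because the ligands had different levels in the same cells. Each is the RefSeq GRCm38.p6 sequence from 250 bases before to 50 bases after the start site, minus strand, with the searched motifs in capitals.
Cxcl10, chr5:92348840-92349139: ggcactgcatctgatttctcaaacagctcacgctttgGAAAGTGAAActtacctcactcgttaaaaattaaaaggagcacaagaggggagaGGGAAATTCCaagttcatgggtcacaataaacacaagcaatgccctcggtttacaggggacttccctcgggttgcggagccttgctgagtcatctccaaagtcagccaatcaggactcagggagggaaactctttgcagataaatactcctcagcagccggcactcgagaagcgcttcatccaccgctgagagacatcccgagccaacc
Cxcl9, chr5:92328030-92328329: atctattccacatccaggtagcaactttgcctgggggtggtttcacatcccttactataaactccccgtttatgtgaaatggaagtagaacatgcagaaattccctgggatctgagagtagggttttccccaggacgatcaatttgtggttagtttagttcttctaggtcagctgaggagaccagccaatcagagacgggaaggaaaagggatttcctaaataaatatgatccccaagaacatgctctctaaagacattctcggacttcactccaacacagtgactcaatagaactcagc
The Cxcl10 promoter held GAAAGTGAAA, a match to the interferon-stimulated response element (GAAA, any 2 bases, GAAA), starting 213 bases before the start site, at position -213. It also held GGGAAATTCC, a match to the NF-kB motif (GGGA, any 2 bases, TTCC), at position -159, with no overlap between the 2 matches. On both strands of 32851 promoters of the same length, the first motif occurred in 3.44%, the second in 1.47% and both together in 0.0670%. The Cxcl9 and Cxcr3 windows held neither of these, nor a gamma-activated site as TTCNNNGAA, which 8.30% of promoters held. A match is a description of letters only, and other forms of these sites were not searched. No link between these letters and the levels was tested.

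The libraries were 6: 1 for each line and 2 that mixed tumours of several lines, 1 of which held the WT tumours. Each sample had 224 to 4578 cells with a single hashtag and 1975214 to 27576694 unique molecular identifiers (UMIs, the counted RNA molecules). Median UMIs per cell ran from 3072 in the line 24 library to 9121 in the line 15 library, so shares of cells with a UMI are also given thinned to equal depth. The library pairs shared 263 to 519 cell barcodes. Cells were put into classes by marker genes, and cells that carried no marker class and no Ptprc, the pan-leukocyte gene, are called the line compartment, so Ptprc is at 0 in it by rule. This compartment held 69.0% of cells and should hold the tumour cells. The melanocyte genes Mlana, Pmel, Dct and Tyr were at 0 to 0.15 CPM in it, where CPM is a gene's UMIs scaled to the same total (1000000) in every sum of cells. Mif in the line compartment was 1774 to 3113 CPM in control samples and 42.7 to 765 CPM in Mif KO samples, with no overlap. The 2 knockout lines differed: it was 42.7 to 282 CPM in line 19 (median 61.6) and 227 to 765 CPM in line 24 (median 432).

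Which cells held the ligands was asked first. Most Cxcl9 UMIs lay in myeloid cells and stroma, and most Cxcl10 UMIs in the line compartment. C1q macrophages (tissue macrophages with complement C1q) held 34.5% of all Cxcl9 UMIs of days 6 to 16, fibroblasts 17.8%, the line compartment 18.1%, C1q-negative monocytes 11.02% and endothelial cells 5.28%. By line (15, 18, 19 and 24) macrophages held 51.6%, 47.3%, 20.5% and 35.2% of the Cxcl9 UMIs and fibroblasts 13.5%, 9.59%, 29.7% and 13.2%, so in line 19 fibroblasts held more than macrophages. Of the Cxcl10 UMIs, the line compartment held 70.6%, C1q macrophages 10.1%, monocytes 5.49% and fibroblasts 5.31%. Levels in CPM are relative to all UMIs of the cells summed. The line compartment also held 439154972 of the 532747683 UMIs of all genes. Its summed Cxcl10 level, 189 CPM, was thus below the 220 CPM of whole tumours.

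Tumour by tumour, the line compartment held 40.7% to 87.0% of the Cxcl10 UMIs (median 74.7%, n = 35). By line the medians were 59.0%, 62.5%, 76.3% and 77.1% (lines 15, 18, 19 and 24). C1q macrophages held 3.33% to 77.6% of a tumour's Cxcl9 UMIs (median 47.7%). Fibroblasts held a median of 10.2% of Cxcl9, and 30.3% in line 19, although they were 1.93% of cells. The bars by line set these shares beside the share of cells, not beside the share of all UMIs.

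**Figure D1:**
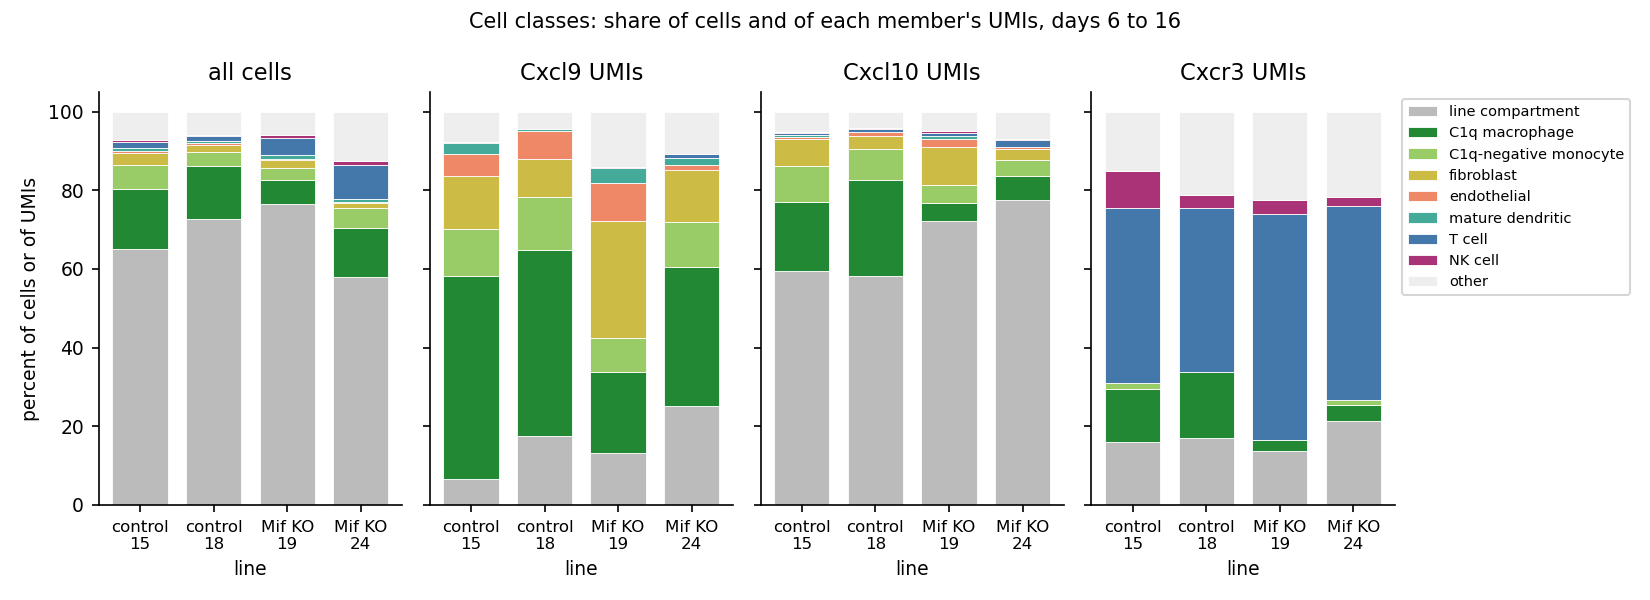
Stacked bars give the share (percent, y axis) of all cells and of the UMIs of Cxcl9, Cxcl10 and Cxcr3 held by each cell class, by line (x axis), summed over the tumours of days 6 to 16. The line compartment holds 58.2% to 77.6% of Cxcl10 UMIs in the 4 lines but 6.59% to 25.2% of Cxcl9 UMIs; T cells hold 41.5% to 57.5% of Cxcr3 UMIs.

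Per UMI of its own cells, the ranking differed from the ranking by total. The highest summed Cxcl9 levels were in 2 small classes, keratinocytes (1189 CPM, 111 cells) and endothelial cells (1185 CPM, 333 cells, 95% Poisson interval 1134 to 1238, counting error only). Endothelial cells reached 20 cells in 1 tumour alone, so neither class could be compared over tumours. By line (15, 18, 19 and 24) the keratinocyte sums were 51.3, 38.4, 2832 and 1291 CPM, from 22 to 31 cells each, and the endothelial sums 488, 796, 2226 and 1473 CPM, beside 239, 260, 612 and 851 CPM in C1q macrophages. In lines 15 and 18 the keratinocyte sum was thus below that of macrophages. Among the classes with enough cells, mean log2(CPM + 1) of Cxcl9 ran from 8.41 in C1q macrophages (35 tumours) through 7.66 in monocytes (34) and 7.04 in fibroblasts (30) to 3.39 in the line compartment, 2.78 in T cells (28) and 1.60 in osteoclast-like cells (13). Mature dendritic cells reached 7.93 over 10 tumours, in which both macrophages (by 1.06) and monocytes (by 1.03) had the higher mean, so their place in the order is not given.

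C1q macrophages exceeded the line compartment in 35 of 35 tumours, by 5.01 ± 1.56 on the log2 scale (SD), and T cells in 28 of 28, by 5.98 ± 2.07 (adjusted p = 3.75e-05 for each, within-tumour sign-flip permutation test, two-sided, adjusted over all class pairs and members). They exceeded monocytes by 0.73 ± 1.47 in 23 of 34 tumours (adjusted p = 0.0066), a call lost without line 15 (0.48), with at least 50 cells (0.51) and on the CPM scale (by 113 CPM, adjusted p = 0.070), and fibroblasts by 1.19 ± 2.35 in 19 of 30 (adjusted p = 0.017). The order of macrophages and fibroblasts rested on the scale: in CPM the mean was 408 in macrophages and 610 in fibroblasts of the same tumours. Macrophages and mature dendritic cells differed by 1.06 ± 1.60 (n = 10, adjusted p = 0.076), which the test did not separate.

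For Cxcl10, mean log2(CPM + 1) was 8.72 in monocytes, 8.52 in C1q macrophages, 7.75 in fibroblasts, 7.22 in the line compartment, 6.88 in mature dendritic cells (10 tumours), 6.83 in T cells and 3.76 in osteoclast-like cells (13 tumours). Some small classes had summed levels near or above that of monocytes (655 CPM). They were type 2 dendritic cells (837 CPM, 132 cells), pericytes (667 CPM, 29 cells) and endothelial cells (641 CPM, 333 cells), too few to compare over tumours. Monocytes and macrophages were not separated (0.19 ± 1.15 higher in monocytes, adjusted p = 0.36, permutation test) on the log2 scale, but on the CPM scale monocytes were higher by 203 CPM (adjusted p = 0.0028). Over all 4 lines both exceeded the line compartment, monocytes by 1.46 ± 1.44 in 26 of 34 tumours and macrophages by 1.29 ± 1.30 in 27 of 35 (adjusted p = 3.75e-05 for each). The order of macrophages and the line compartment turned in line 24. There the mean log2 ratio of the line compartment to macrophages was 0.74, against -1.81, -2.16 and -1.72 in lines 15, 18 and 19. Fibroblasts and the line compartment (0.73 ± 1.93, adjusted p = 0.069) and T cells and the line compartment (-0.64 ± 1.69, adjusted p = 0.070) were not separated.

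**Figure D2:**
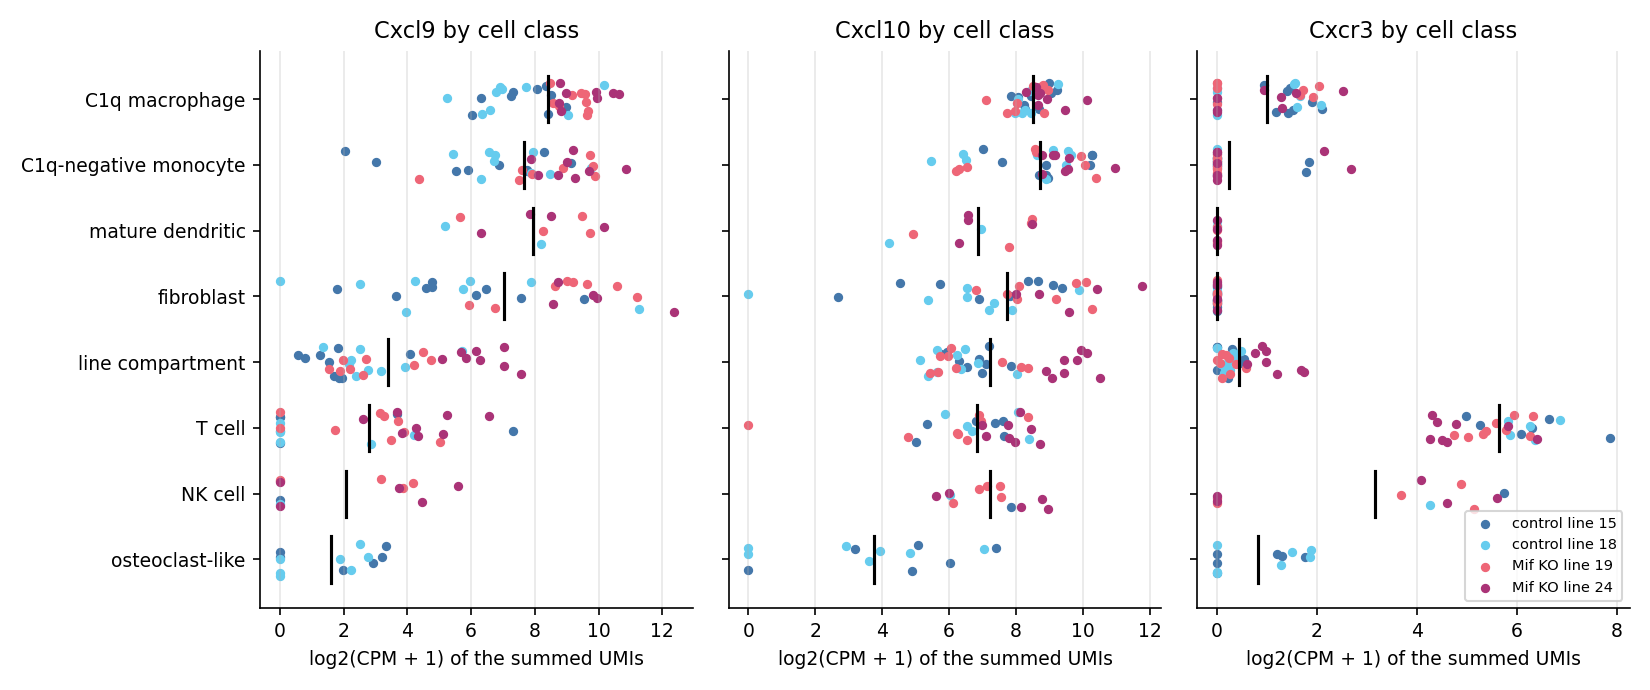
Each point is 1 tumour of days 6 to 16 with at least 20 cells of the class (y axis), coloured by line; the x axis is log2(CPM + 1) of Cxcl9, Cxcl10 or Cxcr3, and black bars are means. Cxcl9 has a mean of 8.41 in macrophages and 3.39 in the line compartment, Cxcl10 one of 8.52 and 7.22, and Cxcr3 is high in T cells (5.64).

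The ligands were also spread differently over the cells of a class. Thinned to 1000 UMIs a cell, 18.5% of C1q macrophages had a Cxcl9 UMI (25.5% unthinned) against 1.61% of line compartment cells (4.11% unthinned). For Cxcl10 the thinned shares were 15.8% of macrophages, 9.75% of line compartment cells (19.97% unthinned) and 9.78% of T cells (14.8% unthinned). In the line compartment the top 1% of cells held 70.4% of its Cxcl9 UMIs and 39.0% of its Cxcl10 UMIs. In macrophages the top 1% of cells held 23.4% and 30.7%.

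Cells with one ligand more often had the other. Of C1q macrophages with a Cxcl9 UMI, 35.3% also had Cxcl10, against 19.9% of those without. Of endothelial cells with Cxcl9, 87 of 145 also had Cxcl10, against 18.1% of the rest, and in fibroblasts the shares were 59.2% and 20.2%. In the line compartment they were 43.6% and 19.0%, a gap that mixes lines, as 1255 of its 2423 cells with Cxcl9 were of line 24. By line (15, 18, 19 and 24) the shares were 36.3%, 24.2%, 32.1% and 56.3% with Cxcl9 and 15.0%, 9.71%, 16.7% and 43.5% without. In the line compartment the cells with Cxcl9 had a median of 3618 UMIs, against 6479 in the rest, and which cells they were was not tested. Cells of 1 tumour share their source, so these shares are descriptions with no test.

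RNA that is free in the droplets, or a macrophage caught with another cell, can add ligand UMIs to other classes, and its part in these levels was not tested. As a yardstick, 7 macrophage genes were read in the line compartment and stood at 0.68% to 2.15% of their macrophage level (median 0.91%). Cxcl9 stood at 3.78% and Cxcl10 at 50.5% of the macrophage level there. In line 24 the yardstick was higher, 2.13% to 6.24%, and so were Cxcl9 (9.81%) and Cxcl10 (174%). In line 24 both ligands thus lay above the range of the 7 genes, and in line 18 Cxcl9 did too (3.50%, range 0.62% to 1.76%). In line 15, Cxcl9 in the line compartment (1.26%) lay within the range of the 7 genes (0.58% to 2.09%), and in line 19 too (1.49%, range 0.41% to 1.52%). In both lines it was above the median of the 7 genes (0.73% in line 15 and 0.71% in line 19). Cxcl10 lay above that range in the line compartment of all 4 lines, at 22.6% or more.

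Whether the knockout went with more ligand was asked next, in each class. Cxcl9 in C1q macrophages was higher in tumours of both Mif KO lines than in most control tumours. In control line 15 the values were 266, 328 and 77.8 CPM at day 6, 359, 502 and 152 CPM at day 10 and 337, 64.8 and 158 CPM at day 16. In control line 18 they were 80.3, 108 and 36.5 CPM at day 6, 1151, 123 and 211 CPM at day 10 and 521, 118 and 96.0 CPM at day 16. The first line 18 tumour of day 10 was the only control tumour above the Mif KO median of 696 CPM.

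In Mif KO line 19 Cxcl9 in C1q macrophages was 696, 758 and 357 CPM at day 6, 430, 783 and 579 CPM at day 10 and 796, 815 and 379 CPM at day 16. In line 24 it was 435 and 998 CPM at day 6, 444, 505 and 454 CPM at day 10 and 1584, 1389 and 977 CPM at day 16. All 17 Mif KO tumours lay above the control median of 155 CPM, and 2 lay above every control tumour, so the groups overlapped. Line means were 249 ± 147 (SD, n = 9), 272 ± 360 (n = 9), 621 ± 189 (n = 9) and 848 ± 460 CPM (n = 8) for lines 15, 18, 19 and 24.

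The log2 fold change of Cxcl9 in C1q macrophages was 1.59 (SE 0.32), with an adjusted p of 0.00017 by edgeR's quasi-likelihood test with Benjamini-Hochberg adjustment over all genes. In this comparison 35.7% of 7150 genes passed, so passing alone says little about a gene. Cxcl10 in the same cells did not pass (0.29, SE 0.18, edgeR adjusted p = 0.20): it was 228 to 614 CPM in control tumours (median 324) and 135 to 1118 CPM in Mif KO tumours (median 402). Without line 19 it passed, at 0.61 (edgeR adjusted p = 0.014). Without line 24 the Cxcl9 value was 1.43 (edgeR adjusted p = 0.010), and in the mixed libraries alone it was 2.19 (edgeR adjusted p = 0.00020). Summing each line into 1 sample, 2 against 2, gave 1.61 and an edgeR adjusted p of 0.059.

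The difference between the ligands was tested itself, as the within-tumour ratio of Cxcl9 to Cxcl10 in C1q macrophages. The mean log2 ratio was -0.95 ± 1.01 in control tumours and 0.78 ± 0.74 in Mif KO tumours. Line by line it was -0.85, -1.06, 0.92 and 0.62 for lines 15, 18, 19 and 24. Mif KO exceeded control by 1.69 (permutation within day, n = 18 and 17, p = 1.0e-05, the smallest that the resamples can give, adjusted p = 1.0e-04 over 10 ratios). Leaving out any 1 line kept the ratio difference between 1.495 and 1.87, with a permutation adjusted p of at most 0.0027, while in the mixed libraries alone (6 against 6) it was 2.05 with a permutation adjusted p of 0.087. The same ratio also passed in monocytes (1.58), fibroblasts (1.68) and the line compartment (0.66), with permutation adjusted p of 0.0087, 0.035 and 0.044. Each of these calls was lost without line 24 and without line 15.

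These ratios were added after the data were seen. The tumours are the samples of these tests, but they come from 2 lines per group. Each single-line library holds 1 line, so there line and library cannot be told apart. No source says that tumours of a line were independent of each other beyond being separate hashtags.

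**Figure D3:**
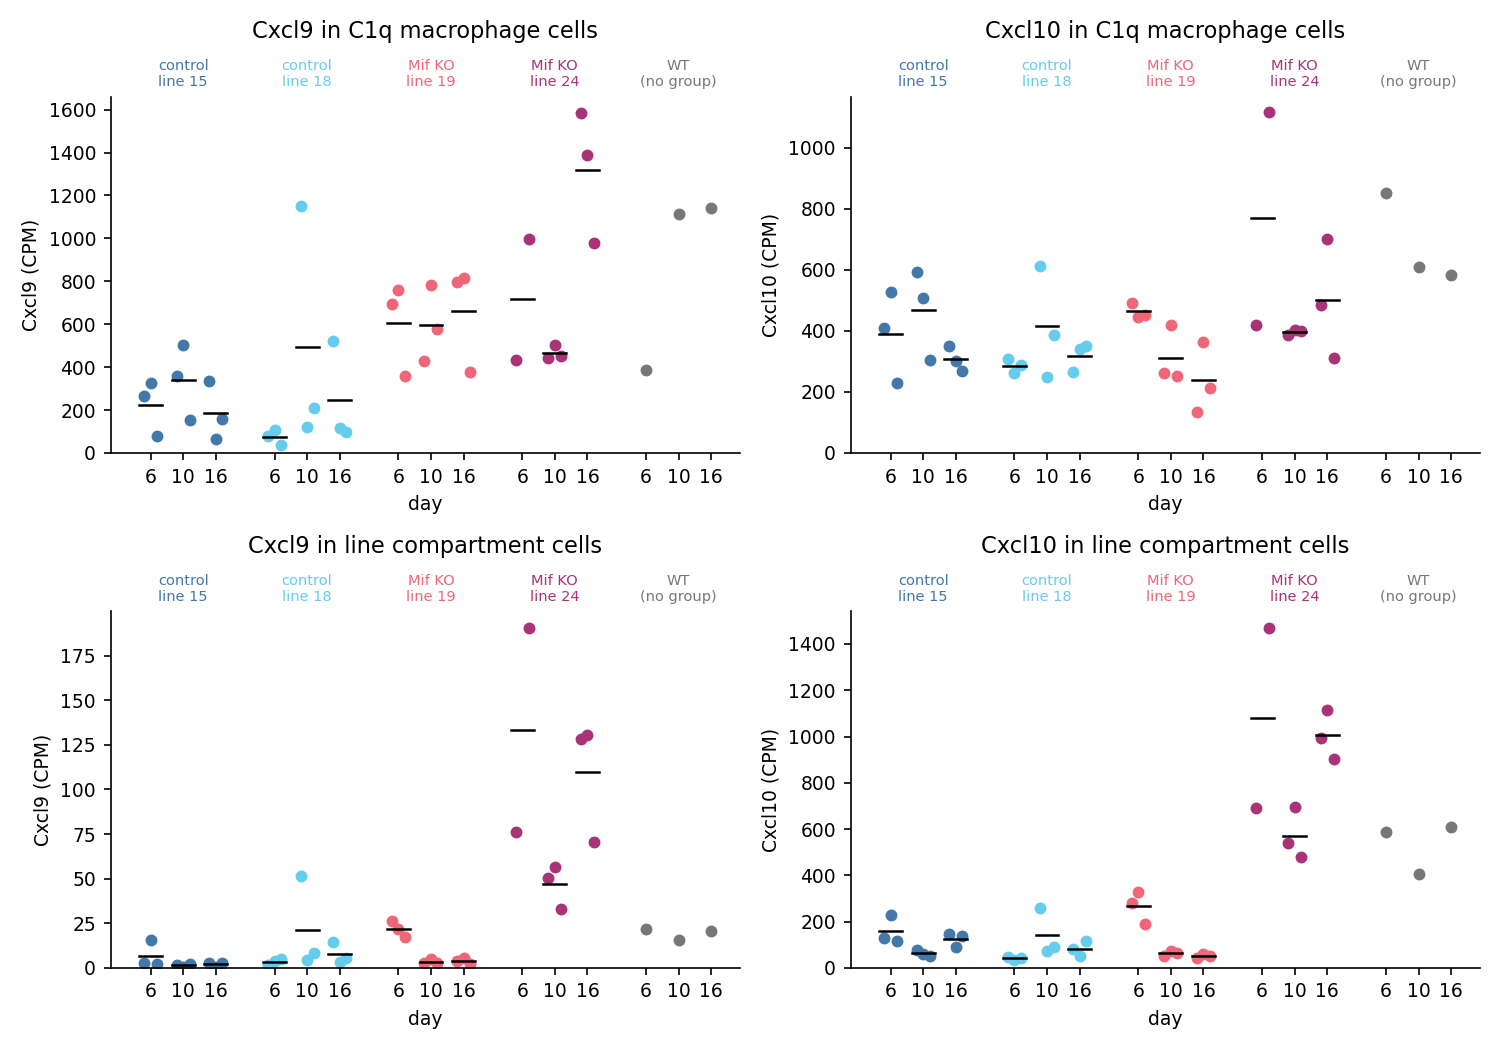
CPM (y axis, linear) of Cxcl9 and Cxcl10 in C1q macrophages (top) and in the line compartment (bottom) by line and day (x axis); points are tumours, black bars means, and the 3 WT tumours are in grey without a mean. Cxcl9 in macrophages is above the control median of 155 in all Mif KO tumours, while Cxcl10 in the line compartment is above 480 in line 24 alone among the 4 lines.

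C1q-negative monocytes and fibroblasts had the same direction for Cxcl9. In monocytes Cxcl9 was 3.12 to 867 CPM in 18 control tumours (median 112) and 19.4 to 1857 CPM in 16 Mif KO tumours (median 496), which overlapped. Mif KO exceeded control by 1.495 on the log2 scale (SE 0.43, edgeR adjusted p = 0.013, with 16.9% of genes passing). The call was lost without line 24 (1.28), without line 15 (1.30) or with a library term (2.32). Cxcl10 in monocytes did not pass (0.31, SE 0.37, edgeR adjusted p = 0.62).

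Fibroblasts gave a wide spread. Their Cxcl9 was 0 to 2475 CPM in 17 control tumours (median 26.6) and 59.5 to 5231 CPM in 13 Mif KO tumours (median 586). All 13 Mif KO tumours lay above the control median and 1 above every control tumour. By edgeR this was a log2 difference of 2.15 (SE 0.78, edgeR adjusted p = 0.0496, 18.1% of genes passing). That call was lost on leaving out line 15, 19 or 24, and also with a library term. Cxcl10 in fibroblasts was 0 to 935 CPM in control tumours (median 145) and 112 to 3473 CPM in Mif KO tumours (median 582), a log2 difference of 1.41 that did not pass (SE 0.51, edgeR adjusted p = 0.052). It passed with a library term (3.76), in the mixed libraries alone (3.38), with each line summed into 1 sample (2.02), without line 19 (2.18), with a stricter gate (1.71), with another hashtag call (1.44) and with no count filter (1.41), and did not pass by DESeq2 (1.37), with RLE scaling (1.42), with a stricter cell filter (1.40) or without line 15, 18 or 24 (1.15 to 1.67).

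In the line compartment Cxcl10 was higher in line 24 than in the other 3 lines. It was 689 and 1469 CPM at day 6, 538, 696 and 480 CPM at day 10 and 993, 1117 and 904 CPM at day 16 in line 24. All 8 of these tumours lay above every tumour of the other lines. In line 19 it was 282, 330 and 191 CPM at day 6, then 52.3, 73.4 and 65.0 CPM at day 10 and 41.9, 61.1 and 49.8 CPM at day 16. The control tumours had 34.3 to 258 CPM (median 85.2), so the later tumours of line 19 lay inside the control range.

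The WT tumours had 588, 405 and 611 CPM of Cxcl10 in the line compartment at days 6, 10 and 16. All 3 were above every control tumour and above every line 19 tumour, and 2 of them lay within the range of line 24 (480 to 1469 CPM). Their C1q macrophages had 388, 1113 and 1143 CPM of Cxcl9 and 851, 611 and 583 CPM of Cxcl10. For Cxcl9 in these cells all 3 were above the control median of 155 CPM, and 2 were above the Mif KO median of 696 CPM. None was above the highest control tumour (1151 CPM). At day 0 the 2 samples of line 24 were the highest, by a small margin for 1 of them: they had 114 and 48.4 CPM of Cxcl10 in the line compartment, and the 5 day 0 samples of the other lines had 10.6 to 41.2 CPM.

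Cxcl9 in the line compartment was also highest in line 24. It was 33.2 to 190 CPM in line 24 and 1.90 to 26.0 CPM in line 19, against 0.46 to 51.4 CPM in control tumours (median 3.14). Of the 8 tumours of line 24, 6 lay above every control tumour.

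Fitted over both knockout lines with the day 0 samples included (21 against 21), Cxcl10 in the line compartment was higher in Mif KO by 1.96 on the log2 scale (SE 0.40, edgeR adjusted p = 9.4e-05) and Cxcl9 by 2.88 (SE 0.60, edgeR adjusted p = 0.00012). In this comparison 51.5% of 12999 genes passed. Without the day 0 samples the values were 2.18 and 2.78 (edgeR adjusted p = 0.00012 and 0.00069). Without line 24 the Cxcl10 value was -0.01 (edgeR adjusted p = 0.99) and the Cxcl9 value 0.49, neither passing. Both calls were also lost with a library term (1.25 for Cxcl10 and 2.16 for Cxcl9), in the mixed libraries alone (1.31 and 2.05) and with each line summed into 1 sample (1.89 and 2.50). The within-tumour log2 ratio of Cxcl10 in the line compartment to C1q macrophages was -1.81, -2.16 and -1.72 in lines 15, 18 and 19 and 0.74 in line 24. The Mif KO minus control difference of that ratio was 1.42 (permutation within day, adjusted p = 0.0038) and 0.26 without line 24 (permutation adjusted p = 0.48).

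More line compartment cells of line 24 carried Cxcl10, at a lower sequencing depth. Thinned to 1000 UMIs, 29.5% of its cells had a Cxcl10 UMI, against 5.62%, 4.27% and 6.14% in lines 15, 18 and 19. Unthinned the shares were 44.9% against 15.2%, 10.0% and 17.2%.

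**Figure D4:**
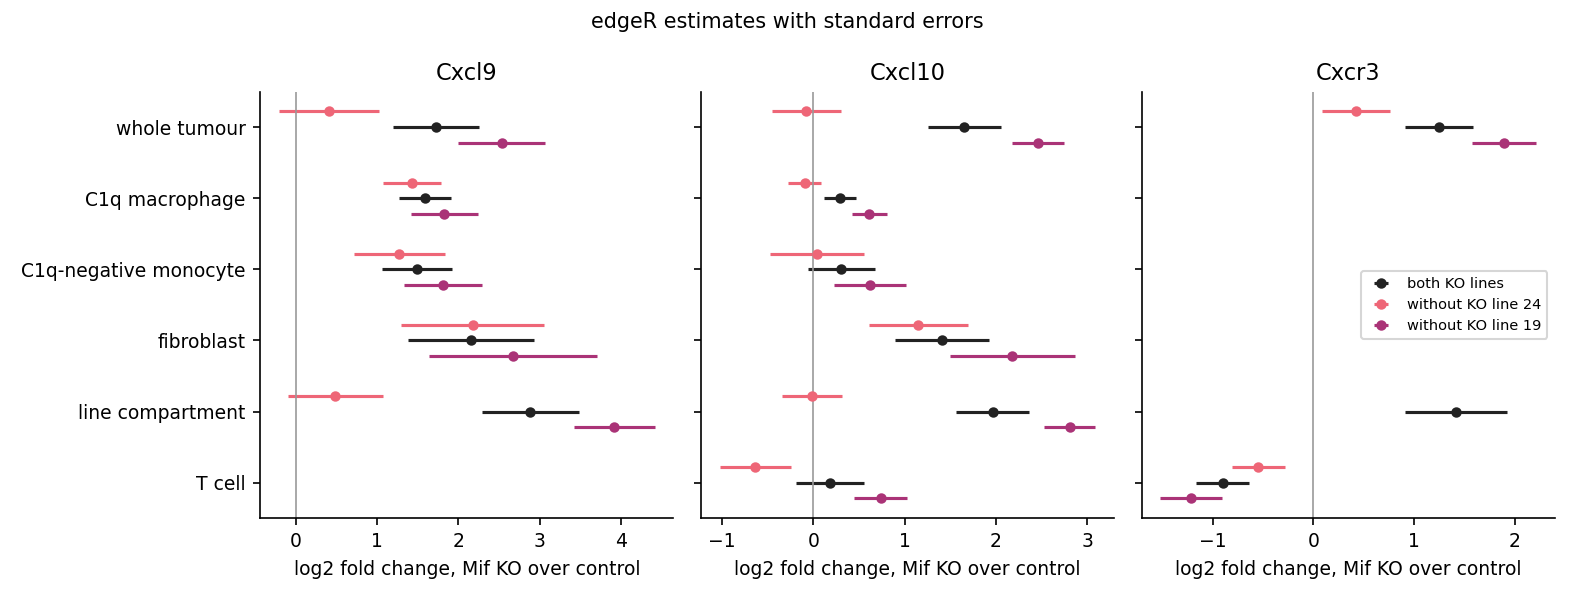
The x axis is the edgeR log2 fold change (Mif KO over control) with its standard error for each member, by cell class (y axis), fitted with both knockout lines and without line 24 or line 19. Cxcl9 in C1q macrophages lies between 1.43 and 1.83 in the 3 fits, while Cxcl10 in the line compartment goes from 1.96 to -0.01 without line 24. The line compartment fits include the day 0 samples. A missing point is a gene not tested in that fit.

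Summed over whole tumours, all 3 measured members were higher in Mif KO. In such sums more cells of a type and more RNA per cell cannot be told apart. Cxcl9 was 7.50 to 231 CPM in control tumours (median 22.6) and 13.02 to 488 CPM in Mif KO tumours (median 113). Cxcl10 was 40.4 to 318 CPM (median 130) and 44.9 to 1426 CPM (median 378), and Cxcr3 0.17 to 2.21 CPM (median 0.93) and 0.44 to 9.28 CPM (median 1.68). The groups overlapped for each gene.

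The whole-tumour log2 fold changes were 1.73 (SE 0.53, edgeR adjusted p = 0.0076) for Cxcl9, 1.65 (SE 0.40, edgeR adjusted p = 0.0010) for Cxcl10 and 1.25 (SE 0.34, edgeR adjusted p = 0.0030) for Cxcr3. Of 13725 genes tested 47.5% passed, and 26.5% were higher in Mif KO. Without line 24 the values were 0.41, -0.08 and 0.42, and none passed. The Cxcl9 call was also lost without line 15 (1.58) and the Cxcr3 call without line 18 (1.08). None of the 3 passed with a library term (1.76, 0.98 and 1.15 for Cxcl9, Cxcl10 and Cxcr3), in the mixed libraries alone (1.73, 0.98 and 1.01) or with each line summed into 1 sample (1.85, 1.72 and 1.45). The T-cell share of each line is given below, and its part in these sums was not tested.

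The day course was asked within each line as well. Over all lines, day 16 against day 6 in whole tumours passed for Cxcr3 (0.95, SE 0.36, edgeR adjusted p = 0.039, with 36.4% of genes passing) and for neither ligand. The Cxcr3 call was lost without line 15 (1.04), line 18 (0.63) or line 24 (0.93). In line 19 whole-tumour Cxcl10 fell from 338, 378 and 264 CPM at day 6 to 44.9, 68.6 and 60.2 CPM at day 16. The log2 difference of day 16 from day 6 was -2.51 (SE 0.20, edgeR adjusted p = 0.00027) and for Cxcl9 -2.34 (SE 0.39, edgeR adjusted p = 0.0049), where 16.5% of genes passed.

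The fall in line 19 was seen in several classes. In its line compartment Cxcl9 fell by 2.60 (edgeR adjusted p = 0.00069) and Cxcl10 by 2.43 (edgeR adjusted p = 0.00015) on the log2 scale, with 19.5% of genes passing. Cxcl10 fell by 0.97 in its C1q macrophages (edgeR adjusted p = 0.047, 2.74% of genes passing) and by 1.96 in its monocytes (edgeR adjusted p = 0.018, 1.76% passing). Cxcl9 in line 19 macrophages did not pass (0.16, SE 0.28, edgeR adjusted p = 0.90): it stood at 357 to 758 CPM at day 6 and 379 to 815 CPM at day 16.

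Line 18 went the other way. Its whole-tumour Cxcl10 rose from 56.7, 40.4 and 47.8 CPM at day 6 to 112, 95.1 and 171 CPM at day 16 (1.26, SE 0.38, edgeR adjusted p = 0.026). Cxcr3 rose too (2.14, SE 0.50, edgeR adjusted p = 0.0085), in a course where 36.0% of genes passed. In its monocytes Cxcl10 went from 43.0, 89.5 and 84.1 CPM to 722, 397 and 759 CPM, with no overlap (3.02, SE 0.33, edgeR adjusted p = 0.00016, 1.14% of genes passing). Lines 15 and 24 had no member that passed in whole tumours, where 6.87% and 0.160% of all genes passed. The day effect on whole-tumour Cxcl10 differed between Mif KO and control by -1.82 (SE 0.59, edgeR adjusted p = 0.046, interaction term), in a test that 10.3% of genes passed. That call was lost without line 19 (-0.58) or line 18 (-1.16), the lines with the fall and the rise.

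Cxcr3, the receptor, was mainly in T cells, which held 49.8% of its UMIs, against 17.5% in the line compartment and 7.29% in C1q macrophages. Its summed level was 50.02 CPM in T cells, 15.6 CPM in NK cells, 1.68 CPM in C1q macrophages and 0.29 CPM in the line compartment, and no UMI was found in 1644 fibroblasts or 333 endothelial cells, which allows a share of cells with a UMI of up to 0.182% and 0.901%. Type 1 dendritic cells had 48.5 CPM, from 35 cells. T cells exceeded C1q macrophages in 28 of 28 tumours, by 4.67 ± 1.10 on the log2 scale, and the line compartment in 28 of 28, by 5.13 ± 1.13 (adjusted p = 3.75e-05 for each, permutation test).

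Among T cells the regulatory subset (Foxp3) had the highest summed level, 137 CPM (95% Poisson interval 98.8 to 185, counting error only) from 148 cells. Conventional CD4 T cells had 43.9 CPM (33.2 to 56.9) and CD8 T cells 36.4 CPM (29.4 to 44.6). Regulatory T cells never reached 20 in a tumour, so that order had no test over tumours. Thinned to 1000 UMIs, 11.4% of regulatory T cells, 3.40% of conventional CD4 and 3.996% of CD8 T cells had a Cxcr3 UMI, against 0.0618% of line compartment cells. CD8 and conventional CD4 T cells differed by -1.24 ± 2.01 on the log2 scale (n = 7, exact sign-flip permutation, adjusted p = 0.26), CD8 T cells and NK cells by 1.78 ± 3.10 (n = 9, exact, adjusted p = 0.26), and conventional CD4 T cells and NK cells by 0.66 ± 3.28 (n = 7, exact, adjusted p = 0.58).

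Within T cells, Cxcr3 was lower in Mif KO tumours. For control lines 15 and 18 it was 90.6 ± 73.8 CPM (SD, n = 6) and 77.2 ± 24.5 CPM (n = 5), and for Mif KO lines 19 and 24 it was 50.5 ± 18.7 (n = 9) and 33.6 ± 23.8 CPM (n = 8). Control tumours ranged from 30.8 to 232 CPM (median 75.9) and Mif KO tumours from 18.3 to 84.1 CPM (median 39.2), which overlapped. By edgeR the log2 difference was -0.90 (SE 0.26, edgeR adjusted p = 0.025, 11 against 17 tumours), with 8.84% of 3155 genes passing. Without line 24 it was -0.55, without line 15 -0.77 and without line 18 -1.03, none passing, and in the mixed libraries alone it was -0.30. The call was also lost with a library term (-0.28) and with each line summed into 1 sample. A stricter gate, a stricter cell filter or no count filter lost it too. The share of regulatory cells among T cells was 13.5%, 8.56%, 4.22% and 2.34% in lines 15, 18, 19 and 24, and its part in the difference was not tested. Summed by line in that order, Cxcr3 was 66.8, 72.3, 41.5 and 26.2 CPM in CD8 T cells, 47.05, 90.9, 36.7 and 43.5 CPM in conventional CD4 T cells and 149.6, 158, 135.6 and 105 CPM in regulatory T cells.

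T cells themselves carried Cxcl10 at 179 CPM, with no group difference that passed (0.19, SE 0.37, edgeR adjusted p = 0.82). In CD8 T cells alone it was -0.40 (SE 0.69, 3 against 12 tumours, edgeR adjusted p = 0.86, 1.41% of genes passing). The 7 macrophage genes stood at 0.88% to 83.3% of their macrophage level in T cells (median 4.74%), Cxcl9 at 5.72% and Cxcl10 at 47.9%. In the line compartment, with the day 0 samples included, Cxcr3 was 1.42 higher in Mif KO on the log2 scale (SE 0.51, edgeR adjusted p = 0.018). Its level there was near 0 in all lines but line 24. All 8 line 24 tumours lay above every control tumour, the highest of which had 0.46 CPM. By line (15, 18, 19 and 24) the summed level there was 0.19, 0.17, 0.17 and 1.19 CPM. The call was lost without line 15 (1.55) or line 18 (1.35), with a library term (1.18), in the mixed libraries alone (1.03) and with each line summed into 1 sample (1.48). The fits without line 19 or line 24 gave no value for Cxcr3 there, because it did not pass their count filter. The value of 1.42 thus describes line 24, and a difference without that line could not be tested. The T-cell gene Cd3d was also read there, at 1.85 CPM against 853 CPM in T cells; its part in the Cxcr3 value was not tested.

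Tumours with many or few T cells were compared last. The median share of T cells was 2.05% for control line 15 (0.56% to 3.30%) and 0.94% for control line 18 (0.17% to 2.67%). It was 3.66% for Mif KO line 19 (1.43% to 8.23%) and 7.25% for Mif KO line 24 (1.68% to 16.6%). WT tumours had 0.86%, 1.73% and 4.79% at days 6, 10 and 16. Cxcl9 in C1q macrophages rose with the T-cell share over the 35 tumours (Pearson r = 0.58, adjusted p = 0.0011; Spearman rho = 0.77, adjusted p = 6.0e-05; permutation tests, 6 relations). Without the 2 tumours farthest from the median share, r was 0.68.

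Within line and day the relation did not pass with all 4 lines. After subtracting the mean of each line and day, r was 0.23 for Cxcl9 in C1q macrophages (permutation within line and day, p = 0.028, adjusted p = 0.15). Within a line it was 0.25, 0.66, 0.66 and 0.17 for lines 15, 18, 19 and 24 (n = 9, 9, 9 and 8, exact permutation p = 0.51, 0.051, 0.062 and 0.68). Cxcl9 in monocytes gave r = 0.38 (rho = 0.57, adjusted p = 0.039 and 0.0012, permutation), 0.43 without the 2 farthest tumours and 0.28 within line and day (adjusted p = 0.15). For Cxcl9 in the line compartment r was 0.55 (rho = 0.58, adjusted p = 0.0014 and 0.0012, permutation), 0.51 without the 2 farthest tumours, 0.22 without line 24 (adjusted p = 0.53) and 0.17 within line and day (adjusted p = 0.23). The pooled monocyte relation did not pass without line 15 (r = 0.34), line 18 (0.38) or line 24 (0.32). Without line 24 the values within line and day passed, at r = 0.37 in C1q macrophages (adjusted p = 0.040), 0.57 in monocytes (adjusted p = 0.025) and 0.41 for Cxcl9 in the line compartment (adjusted p = 0.024, permutation tests).

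For Cxcl10 no relation with the T-cell share passed in myeloid cells. In C1q macrophages r was 0.23 (rho = 0.30, adjusted p = 0.21 and 0.093, permutation) and in monocytes 0.11 (rho = 0.15, adjusted p = 0.56 and 0.39). In the line compartment the line 24 tumours stood apart from the rest for Cxcl10, so r is given apart: it was 0.15 without line 24 (adjusted p = 0.67, permutation) and -0.20 within line 24 (n = 8, exact permutation p = 0.63). It was 0.16 in line 15 and -0.06 in line 19 (n = 9 each, exact permutation p = 0.68 and 0.88). In line 18 it was 0.81 (rho = 0.75, n = 9, exact permutation p = 0.0067, adjusted p = 0.10 over 46 relations within lines and libraries) and 0.38 without the 2 farthest tumours. Within line and day, the fit without line 24 passed for Cxcl10 in the line compartment (r = 0.47, permutation adjusted p = 0.024), and the one with all lines did not (r = 0.25, adjusted p = 0.15).

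**Figure D5:**
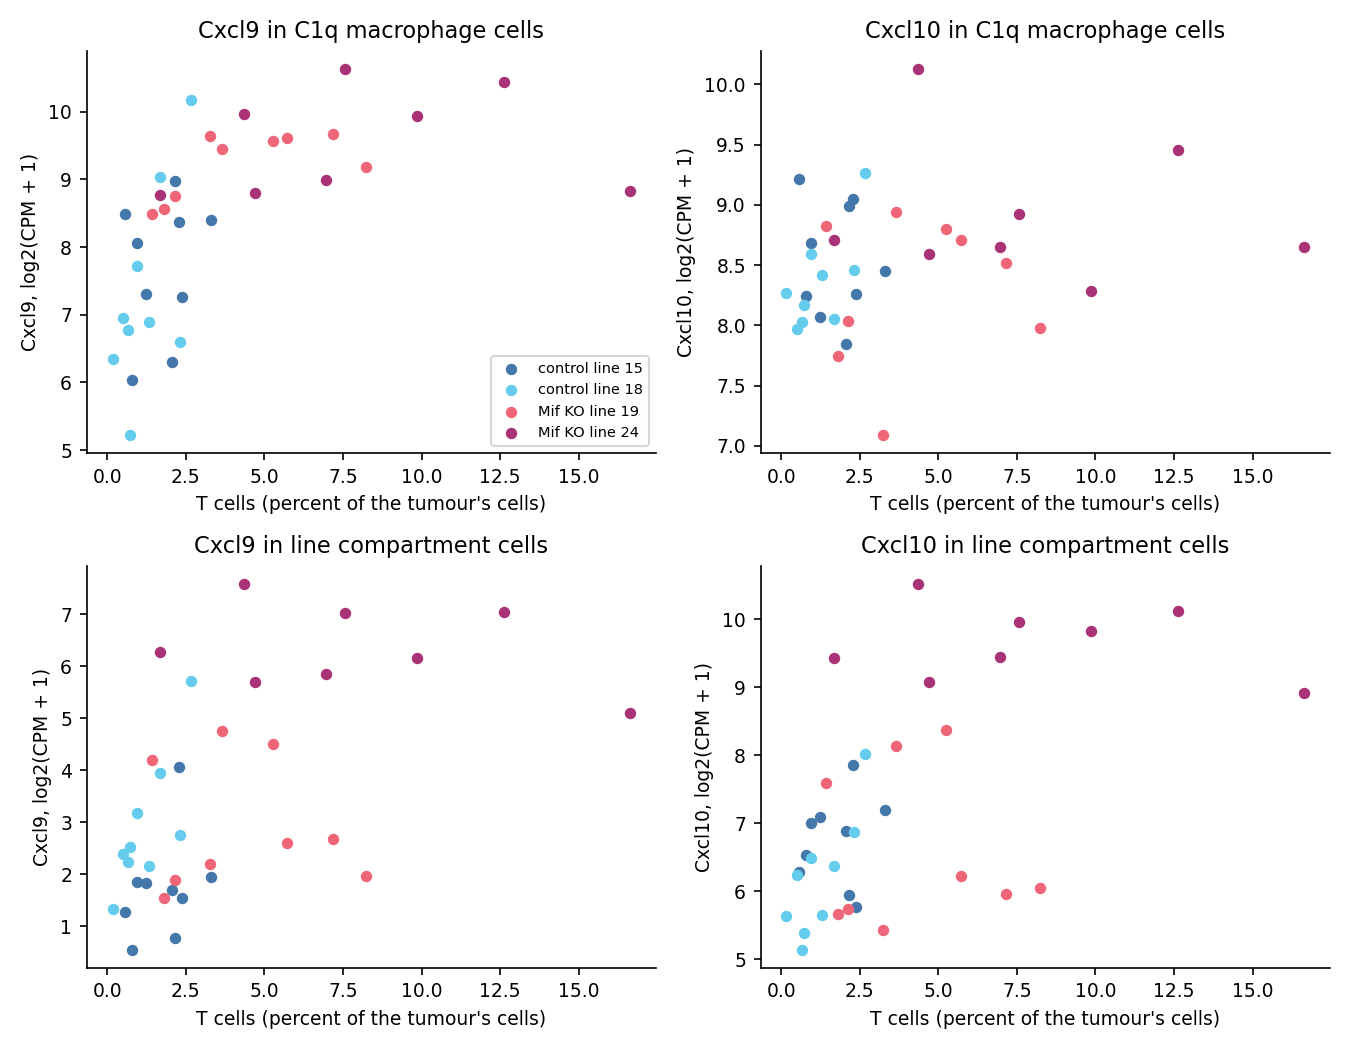
Each point is a tumour, coloured by line; the x axis is the share of T cells among its cells (percent) and the y axis log2(CPM + 1) of the ligand in C1q macrophages (top) or the line compartment (bottom). Cxcl9 in macrophages rises from left to right (r = 0.58), and Cxcl10 in the line compartment is high in line 24 at every T-cell share.

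The pathway around the axis was read from a list of 29 genes: interferon gamma and its receptors, Jak-Stat signal genes, interferon targets and other T-cell chemokines. Ifng, the T- and NK-cell interferon, was 312 CPM in T cells and 165 CPM in NK cells, and 1.30 CPM in C1q macrophages and 0.89 CPM in the line compartment. In C1q macrophages 11 of the 21 genes tested were higher and 2 lower in Mif KO, where 18.4% of all genes were higher (median log2 fold change 0.48, and -0.003 over all genes). Ciita, the master regulator of MHC class II, rose by 1.57 (SE 0.27), Ccl5, another T-cell chemokine, by 1.26 (SE 0.33), the interferon-induced GTPase Gbp2 by 1.06 (SE 0.26) and the kinase Jak2 by 0.96 (SE 0.19). The transcription factor Irf1 rose by 0.79 (SE 0.17). The receptor chains Ifngr1 and Ifngr2 were those that fell, by 0.29 (SE 0.12) and 0.34 (SE 0.09). Each named gene passed edgeR's test with an adjusted p of 0.045 or less.

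Without line 24, 1 of 20 listed genes was higher in C1q macrophages (Gbp2) and 1 lower (Ifngr1), where 9.49% of all genes passed. Cxcl9 itself passed in that fit, as given above. In fibroblasts 11 of 14 listed genes were higher in Mif KO (9.45% of all genes), Gbp4 by 3.002 (SE 0.69) and Cd274, the checkpoint ligand PD-L1, by 2.54 (SE 0.54), and 7 of 12 without line 24 (12.2% of all 6263 genes passed in that fit). Without line 15 it was 4 of 14, where 6.02% of all genes were higher. In monocytes 6 of 19 were higher and 5 lower (7.86% of all genes were higher), and 0 of 19 passed either way without line 24, where 1.86% of all genes passed; in T cells 1 of 18 was higher, Ccl5 (4.47%).

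In the line compartment, day 0 included, 19 of 26 listed genes were higher in Mif KO and none lower (27.1% of all genes were higher). Among them were Ifng (3.85, SE 0.56), Tbx21 (1.999, SE 0.48) and Eomes (1.07, SE 0.39), genes known from T and NK cells. Irf8, an interferon-induced transcription factor, rose by 1.93 (SE 0.43). By line (15, 18, 19 and 24) Ifng was 0.10, 0.24, 0.62 and 5.01 CPM there, Tbx21 0.089, 0.15, 0.20 and 1.19 CPM and Eomes 0.19, 0.53, 0.35 and 1.40 CPM. Only 21 of the 26 passed the count filter without line 24, so the count of 19 includes genes that may have been testable only with that line. The summed level of Irf8 there was 1.40, 1.88, 2.25 and 10.6 CPM in lines 15, 18, 19 and 24, against 1084 CPM in NK cells and 934 CPM in mature dendritic cells. The 7 macrophage genes read there were likewise highest in line 24, at 2.13% to 6.24% of their macrophage level, and the part of free RNA or other cells in these listed genes was not tested. Without line 24, 2 of 21 were higher (Jak1 and Socs1) and 3 lower (Ccl5, Cxcl16 and Ifngr1), where 43.3% of all 12933 genes passed. Over whole tumours 18 of 28 were higher and 1 lower (26.5% of all genes were higher), and 3 and 5 without line 24, where 42.3% of all 13616 genes passed. Without line 15, 12 of 26 were higher in the line compartment (19.6% of all genes were higher) and 11 of 28 in whole tumours (18.98%). From day 6 to day 16, 9 of 21 listed genes fell in C1q macrophages over all lines, among them Irf1, Gbp2, Gbp5, Irf9, Jak2, Socs1, Ccl4 and Tnf, and 1 rose (Ifngr1), where 12.7% of all genes passed. Line by line, 7 of 20 fell in line 15 and 6 of 19 in line 19 (3.56% and 1.92% of all genes were lower), but 0 of 19 in line 18 and 0 of 21 in line 24 (1.10% and 0.014%). Cxcl9 in C1q macrophages over all lines was 0.48 (SE 0.39, edgeR adjusted p = 0.46) from day 6 to day 16. In whole tumours 15 of 28 listed genes rose and 1 fell in line 18, where 17.5% of all genes rose and 18.5% fell. In line 19, 1 of 28 rose and 16 fell, where 9.02% of all genes rose and 7.44% fell. In lines 15 and 24 none rose, and 1 of 27 and 0 of 28 fell (2.63% and 0.046% of all genes).

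The genes most like each member were sought over 27 sums of class and line, as Pearson r of log2(CPM + 1) among 11575 genes; such sums share lines, libraries and cell classes, and r is a description. For Cxcl9 they were Hsd17b11 (r = 0.91), Acvrl1 (0.88), Il18bp (0.88), Cfb (0.88) and Mir22hg (0.86), and Cxcl10 itself reached 0.77. For Cxcl10 they were Stat2 (0.93), Ccnl1 (0.88), Csrnp1 (0.85), Egr2 (0.84) and Gbp2 (0.83). For Cxcr3 they were I730030J21Rik (0.97), Tox (0.96), Slc39a4 (0.96), Igflr1 (0.96) and Cd160 (0.95).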

How the data were processed

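Tumours of SCC35 mouse lines were dissociated, hashed with TotalSeq-C antibodies, sorted live and run on the 10x 5′ v2 kit, per the labels' protocols. The deposited files hold raw UMI counts per cell; Cell Ranger 6.0.0 and mm10 are named in the submitters' processing notes. Cells under 300 genes or over 15% mitochondrial UMIs were left out (163866 stayed); hashtags were called with HTODemux (Seurat 5.3.0), which left 100459 single-hashtag cells after 38402 hashtag doublets and 25005 cells with no hashtag. No other doublet caller was run, and 257 cells with markers of 2 lineages went into no class. Classes needed 3 markers with a UMI and 10 marker UMIs per 10000. UMIs were summed per tumour and class (at least 20 cells) and tested with edgeR 4.0.16 (quasi-likelihood, TMM, filterByExpr; day and group, or line and day), with Benjamini-Hochberg adjustment over all genes at 0.05. Single values used permutation tests with 100000 resamples, or exact ones. CPM is relative to all UMIs of the sum, and logs are log2(CPM + 1). Tests were checked on simulated data. The simulated Mif KO and control tumours held no differences between lines, so that check does not cover p-values that rest on 2 lines per group. Pooled r over groups with shared means was simulated too, but its error rate was not held to a limit. The members and lists were chosen with earlier results of these data known. The genes named are the members, the 29 listed genes and, per member, the 5 genes of highest r; listed genes given with a fold are examples among those that passed, picked after their values were seen; marker genes and Mif are named as checks. Some listed genes are not reported here by name. The ratios were added after the data were seen.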

Additional observations from a re-analysis of the deposited data

Results flagged for a closer look

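Within a line, a single tumour stood apart from the others in 21 of 56 sets of tumours (1 member in 1 class or whole tumour). Each time it was the highest of its set. The cut-off flags about 1 in 20 sets of normally distributed values, a rate that need not hold for untransformed CPM over several days. Sets that share tumours and genes are not independent. The first tumour of control line 18 at day 10, which had the highest T-cell share of its line (2.67%), was highest in 9 of these sets. Its Cxcl9 was 231 CPM in the whole tumour (next 85.2), 1151 in C1q macrophages (next 521), 867 in monocytes (next 355), 2475 in fibroblasts (next 233) and 51.4 in the line compartment (next 14.3). Its Cxcl10 was 314 CPM in the whole tumour (next 171), 614 in C1q macrophages (next 385), 935 in fibroblasts (next 233) and 258 in the line compartment (next 116).

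The line 24 tumour of day 6 in a mixed library had 1426 CPM of Cxcl10 in the whole tumour (next 875). In its monocytes Cxcl9 was 1857 CPM (next 830) and Cxcl10 2006 CPM (next 773), and in its fibroblasts Cxcl9 was 5231 CPM (next 979). The line 24 tumour of day 10 in a mixed library had 9.28 CPM of Cxcr3 in the whole tumour (next 4.35) and the highest T-cell share of all, 16.6%. The second line 15 tumour of day 6 had 749 CPM of Cxcl9 in fibroblasts (next 186) and 15.8 CPM in the line compartment (next 2.83).

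In T cells Cxcl9 stood out in 3 tumours, at 157 CPM in line 15, day 16 (next 11.6), 31.5 CPM in line 19, day 6 (next 14.0) and 92.8 CPM in line 24, day 16 (next 36.6). Cxcl10 in T cells was 328 CPM in a line 19 tumour of day 6 (next 124), and Cxcr3 was 232 CPM in a line 15 tumour of day 10 (next 98.8).

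The day course of whole-tumour Cxcl10 differed between Mif KO and control by -1.82 on the log2 scale (edgeR adjusted p = 0.0459, interaction term). Without line 19 the value was -0.58 and without line 18 -1.16, neither passing; day 16 over day 6 was -0.41, 1.26, -2.51 and -0.36 in lines 15, 18, 19 and 24. The WT tumours belong to no comparison: the lowest of the 3 had 424 CPM of Cxcl10 in the whole tumour, above the highest control tumour (318), and 405 CPM in the line compartment, above 258.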

How the results depend on the processing

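Log2 differences, Mif KO over control, moved on leaving out 1 line. Over the fits that gave a value the ranges for Cxcl9 were 1.28 to 1.81 in monocytes, 1.33 to 2.91 in fibroblasts, 0.49 to 4.10 in the line compartment and 0.41 to 2.53 in whole tumours. For Cxcl10 they were -0.093 to 0.61 in C1q macrophages, -0.80 to 1.60 in CD8 T cells, -0.63 to 0.74 in T cells, 1.15 to 2.18 in fibroblasts, -0.0095 to 2.81 in the line compartment and -0.076 to 2.46 in whole tumours. For Cxcr3 they were -1.21 to -0.55 in T cells, 1.35 to 1.55 in the line compartment and 0.42 to 1.89 in whole tumours. Day 16 over day 6 ranged from -1.30 to 0.34 (Cxcl10, CD8 T cells), from -1.59 to -0.26 and -1.04 to 0.033 (Cxcl9 and Cxcl10, line compartment), and from -0.93 to 0.29, -1.14 to 0.047 and 0.63 to 1.30 (Cxcl9, Cxcl10 and Cxcr3, whole tumours). The added Mif KO minus control difference of that day effect ranged in whole tumours from -3.35 to -0.54 (Cxcl9, which passed without line 15) and -2.87 to -0.58 (Cxcl10). Between classes, Cxcl10 ranged from 0.59 to 1.36 (monocyte minus fibroblast), 2.37 to 2.69 (minus mature dendritic) and 4.39 to 4.68 (minus osteoclast-like), and Cxcl9 in C1q macrophages from 0.48 to 0.999 over monocytes, 0.75 to 1.59 over fibroblasts and 5.31 to 5.84 over osteoclast-like cells. For r with the T-cell share (within line and day after the comma) the ranges were 0.55 to 0.63, 0.14 to 0.37 (Cxcl9, C1q macrophages), 0.32 to 0.44, 0.14 to 0.57 (monocytes) and 0.22 to 0.64, 0.11 to 0.41 (line compartment). For Cxcl10 they were -0.082 to 0.26 pooled in monocytes and 0.15 to 0.70, 0.14 to 0.47 in the line compartment. Listed genes higher in Mif KO ranged from 1 to 12 in C1q macrophages, 0 to 6 in monocytes, 0 to 1 in CD8 T cells and in T cells, 4 to 9 in fibroblasts, 2 to 24 in the line compartment and 3 to 21 in whole tumours. The added ratios ranged from -0.21 to 1.52 (Cxcl9 over Cxcl10, line compartment), -1.11 to 2.05 and 0.26 to 2.70 (line compartment over macrophage, Cxcl9 and Cxcl10), and -0.75 to 0.74 and -0.26 to 0.38 (monocyte over macrophage). With 1 sum per line, calls were lost for Cxcl9 in C1q macrophages (1.61), for Cxcl9, Cxcl10 and Cxcr3 in the line compartment (2.50, 1.89, 1.48) and whole tumours (1.85, 1.72, 1.45) and for Cxcr3 in T cells (-0.69), and Cxcl10 in fibroblasts passed (2.02). With a library term, calls were lost in monocytes (Cxcl9, 2.32), fibroblasts (Cxcl9, 4.46), T cells (Cxcr3, -0.28), the line compartment (2.16, 1.25, 1.18) and whole tumours (1.76, 0.98, 1.15), Cxcl10 in fibroblasts passed (3.76) and in T cells turned (-0.69). In the mixed libraries alone they were lost in T cells (-0.30), the line compartment (2.05, 1.31, 1.03) and whole tumours (1.73, 0.98, 1.01), Cxcl10 in fibroblasts passed (3.38) and in T cells turned (-0.63). There the ratios were 2.05 (Cxcl9 over Cxcl10, macrophage) and 1.31 (Cxcl10, line compartment over macrophage), both lost, and turned to 0.38 and -0.26 (Cxcl9, monocyte and line compartment over macrophage). A stricter gate turned Cxcl10 in CD8 T cells (2.68, and 0.76 by day) and T cells (-0.067), lost Cxcr3 in T cells (-0.42) and r for monocyte Cxcl9 (0.32), and passed Cxcl10 in fibroblasts (1.71) and Cxcl9 in macrophages over mature dendritic cells (1.27). Another hashtag call turned Cxcl10 in CD8 T cells (0.47), lost Cxcr3 in the line compartment (1.06) and passed Cxcl10 in fibroblasts (1.44). A stricter cell filter lost Cxcr3 in T cells (-0.81). With no count filter Cxcr3 in T cells was lost (-0.70), and Cxcl10 in fibroblasts (1.41) and, by day, Cxcl9 and Cxcl10 in macrophages (0.52, -0.39), monocytes (-0.78, -0.77) and fibroblasts (-1.77, -1.44) passed. On the CPM scale macrophage minus fibroblast Cxcl9 turned (-203), macrophage minus monocyte Cxcl9 (113), monocyte minus fibroblast Cxcl10 (110) and r for monocyte Cxcl9 (0.34) were lost, and monocyte minus macrophage Cxcl10 passed (203). With at least 50 cells macrophage minus monocyte Cxcl9 was lost (0.51). Shares of cells with a UMI were 21.95%, 12.9% and 7.88% thinned to 2000 UMIs and 26.3%, 20.7% and 9.76% unthinned under the stricter cell filter (Cxcl9 in macrophages, Cxcl10 in the line compartment, Cxcr3 in T cells). The cause of these changes was not tested. In all, 223 of 292 values counted as unchanged, as did 231 of 319 on leaving out a line. For tests this meant the same direction and side of the threshold. For counts of listed genes it meant a similar count, and for shares of cells a value inside the interval of the main share. The control and Mif KO lines share no replicate number, and the letters of the tumours mark no shared animal in the labels, so no fit used such a block; the library term compares lines within the mixed libraries. Cxcr3 had 776 UMIs in all.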
